A study of Mus musculus with 9 samples.

Results

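Heat shock proteins and their cochaperones were followed here in mouse lung after exposure to 2 forms of the mould Aspergillus fumigatus. The members were 10 genes, chosen by symbol out of the 18984 genes listed: the small heat shock protein Hspb1, the cochaperones Bag3 and Dnajb1, the HSP70 genes Hspa8, Hspa1a and Hspa1b, the HSP110 gene Hsph1, the cytosolic HSP90 gene Hsp90aa1, and the mitochondrial chaperonin genes Hspd1 and Hspe1. Lungs came from C57BL/6 mice, described by the submitters as immunocompetent, 24 h after inoculation into the trachea. Normal saline was given to the control group, conidia (the resting spores) to the conidia group, and fragments of hyphae (the growing filaments) to the hyphae group, with 3 libraries in each. The labels give no allele, transgene or further agent in any group, no age, and no statement of whether a library came from a separate animal or a pool, so p-values measure the spread between these libraries. Poly(A) RNA of the whole lung was sequenced, and the deposited level of a gene is in FPKM, fragments per kilobase of transcript scaled to the mapped total of the library, which can be compared between genes because it is per length.

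Heat shock proteins are molecular chaperones, which bind unfolded or misfolded proteins, keep them from aggregating and help them fold. HSP70 proteins work in a cycle: a DNAJ protein such as Dnajb1 delivers the client, a nucleotide exchange factor such as Hsph1 or Bag3 releases it, and part of the clients pass on to HSP90. The transcription factor HSF1 raises many of these genes after heat or proteotoxic stress by binding heat shock elements, which are inverted repeats of the letters GAA and TTC, while Hspa8 is made constitutively in most tissues.

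The promoter letters are shown because HSF1 is the regulator best known for these genes, and the genes moved in different directions. RefSeq promoter windows of the GRCm38.p6 build, from 250 bases before to 50 after an annotated start, were matched for 8 of the 10 members (11 windows, since a gene can have several starts). Hspa8 and Hsp90aa1 were not matched. Both strands were searched for 2 adjoining repeat units (GAANNTTC or TTCNNGAA) and for 3 (GAANNTTCNNGAA or TTCNNGAANNTTC, each of which contains matches of 2 units). A match of 2 units was present in 15.1% of all 32851 windows of this length (17% of 27025 genes), and a match of 3 units in 0.603% (0.662% of genes). Of the members, 7 held a match of 2 units and 3 held a match of 3. In the sequences below, written 5′ to 3′ on the gene's own strand, capitals mark the matches, and positions count from the annotated start.
Hspb1, chr5:135887779-135887858, plus strand, from -140 to -61: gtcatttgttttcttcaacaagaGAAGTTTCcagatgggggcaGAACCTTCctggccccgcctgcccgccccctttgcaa
Bag3, chr7:128523607-128523632, plus strand, from 25 to 50: gttctctggatgggaccaGAAGTTTC
Hspa1a, chr17:34972207-34972306, minus strand, from -150 to -51: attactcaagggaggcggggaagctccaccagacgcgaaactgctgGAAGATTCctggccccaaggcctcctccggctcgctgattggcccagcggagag
Hspa1b, chr17:34959289-34959388, minus strand, from -150 to -51: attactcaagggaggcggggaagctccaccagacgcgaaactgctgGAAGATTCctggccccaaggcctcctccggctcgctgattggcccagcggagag
Hsph1, chr5:149636287-149636312, minus strand, from 25 to 50: aaatgctgcagaTTCTGGAAAGTTCt
Hspe1, chr1:55088054-55088081, plus strand, from -94 to -67: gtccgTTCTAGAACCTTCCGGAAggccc
Hspb1 and Bag3 were among the members that rose after hyphae, and their windows held 2 and 1 matches of 2 units. The Bag3 match ends at the last base of its window, so a further unit beyond it could not be seen. Only these exact letters were searched, so repeats with a differing letter were not counted in any gene. The printed stretches of Hspa1a and Hspa1b are identical, and the genes share 247 of their 250 upstream bases (98.8%). Hsph1, Hspe1 and Hspd1 held the matches of 3 units. The Hspe1 stretch lies within a first exon of Hspd1, which is transcribed from the opposite strand, so a window of Hspd1 holds the same letters. The windows of Dnajb1, a member that rose, held no match, which says only that these letters are not in these windows.

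**Figure D1:**
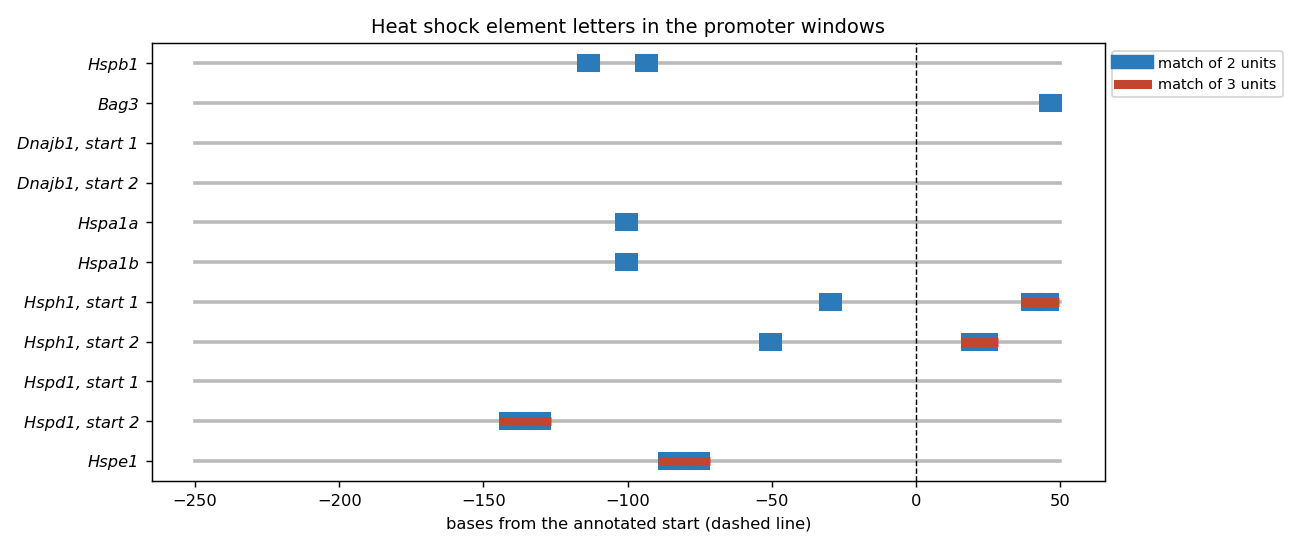
Position of heat shock element letters in the RefSeq promoter windows of the 8 matched members, 1 line for each annotated start; the horizontal axis is the distance in bases from the start (dashed line). Wide bars are matches of 2 units and narrow bars matches of 3 units, which appear in Hsph1, Hspd1 and Hspe1 and in no window of the other 5 genes.

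In the control lungs Hspa8 was the highest of the members at 528 ± 47.7 FPKM (mean ± SD, n = 3, here and below), followed by Hsp90aa1 at 170.5 ± 16.3 and Hspb1 at 107 ± 26.4. Hspe1, Hspd1 and Bag3 lay between 34.6 and 52.6 FPKM on average, Hsph1 and Dnajb1 at 18.6 and 15.1, and the inducible HSP70 genes Hspa1a and Hspa1b at 5.94 and 5.18. Among neighbours in that order, the ranges of Hspe1 and Hspd1 overlapped, as did those of Hspa1a and Hspa1b. After hyphae the order was different: Hspb1 came first at 647 ± 170 FPKM and stood above Hspa8 in each of the 3 libraries, although the ranges of the pair overlapped.

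All 10 members passed the filter on low values, which kept genes reaching 1 FPKM in 3 or more of the 9 libraries, and were read from a limma fit over the 13761 genes that passed, on the scale of log2(FPKM + 1). Calls were made at 0.05 on the adjusted p (limma, two-sided, Benjamini-Hochberg over all genes tested), and adjusted p-values below come from that fit, or from the same model where rescaling or a left-out library is named. In hyphae against control, 3 members were called higher (Hspb1, Bag3 and Dnajb1), 5 lower (Hspa1a, Hspa1b, Hsph1, Hspd1 and Hspe1), and Hspa8 and Hsp90aa1 were not called. The background was wide: 64.9% of all genes tested were called in this comparison, 14.9% higher and 50.0% lower, and the median change over all genes was -0.37 on the log2 scale against -0.39 over the members. The groups did not overlap for the same 3 and 5 members, as for 17.3% (higher) and 53.4% (lower) of all genes. The summed FPKM of a library is shared among its genes, so each change is also given after rescaling the libraries by median-of-ratios factors, which sets the all-gene median to 0.00; then 59.3% of genes were called, 30.0% higher and 29.3% lower. Of the members, 4 were then called higher, with Hsp90aa1 added, and 4 lower, with Hspe1 lost.

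**Figure D2:**
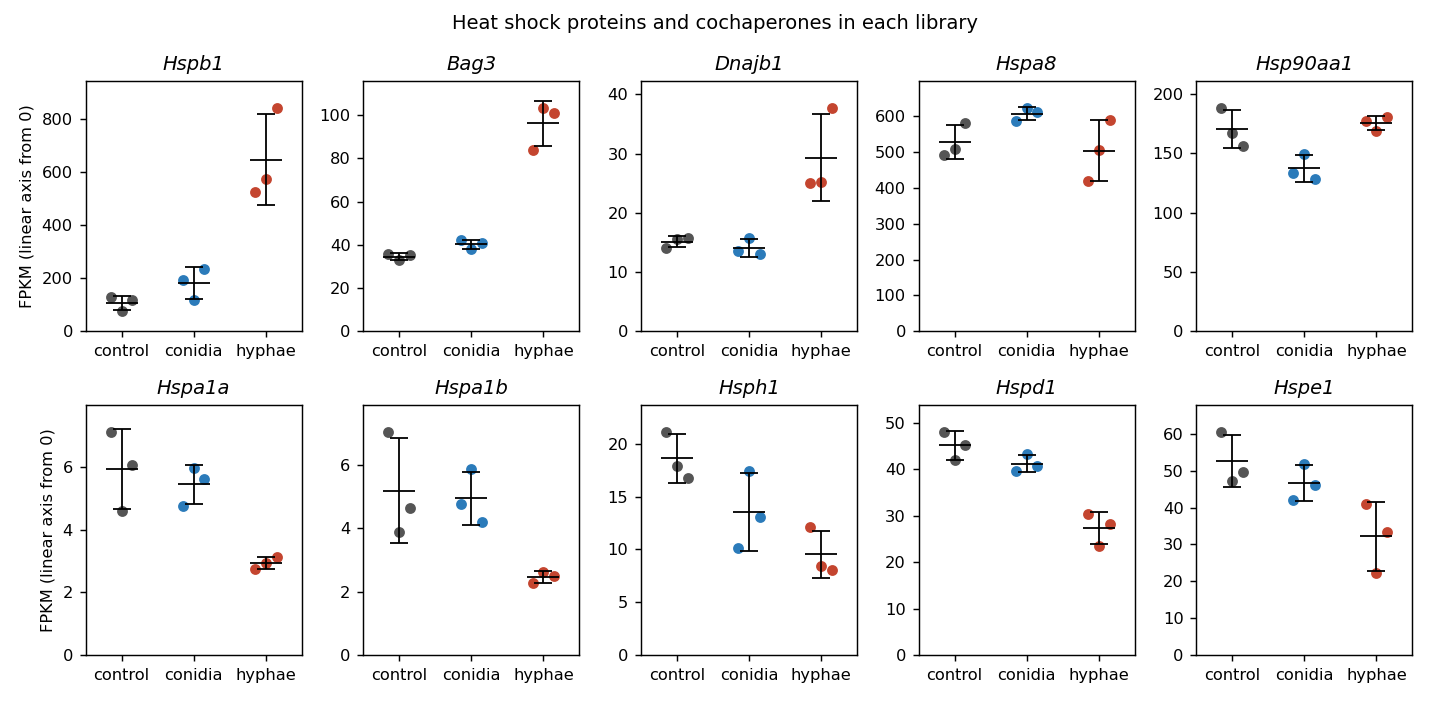
FPKM of each member in each of the 9 libraries (points, with replicates 1 to 3 from left to right), with the mean (wide bar) and SD (narrow bars) of each group of 3; axes are linear, start at 0 and differ between panels. Hspb1, Bag3 and Dnajb1 stand above every control and conidia library after hyphae, and Hspa1a, Hspa1b, Hspd1 and Hspe1 stand below all of them.

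Hspb1 (Entrez gene 15507), an ATP-independent holdase that also binds actin filaments, had the largest change of the members. Its level was 128, 77.2 and 116 FPKM in the 3 control libraries, 194, 117 and 233 after conidia, and 525, 574 and 842 after hyphae. Every hyphae library was above every library of the other groups, while control and conidia overlapped. The mean was 6.05 times the control mean after hyphae, a log2 change of 2.59 (SE 0.29, adjusted p = 0.000149), or 3.02 after rescaling. Hyphae replicate 3 had the highest level, and without it the change was 2.38 (adjusted p = 0.000698). That library also had the highest summed FPKM of 6 cardiac muscle markers of all 9 libraries (2135, against 102 and 216 in the other hyphae libraries and 412 to 1420 in control), and Hspb1 is abundant in muscle. The sum of 1420 was that of control replicate 1, where Hspb1 was at 128 FPKM. Hyphae replicates 1 and 2, whose sums were below every control sum, had Hspb1 at 525 and 574 FPKM. The part of muscle cells in the level of Hspb1 was not tested.

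Bag3 (29810), a nucleotide exchange factor that links HSP70 to small heat shock proteins and to selective autophagy, stood at 35.6, 32.9 and 35.3 FPKM in control, 42.1, 38.0 and 40.8 after conidia, and 84.1, 103 and 101 after hyphae. No group overlapped another. The rise after hyphae was 2.78-fold in the means, a log2 change of 1.45 (SE 0.10, adjusted p = 2.43e-05), and 1.87 after rescaling.

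Dnajb1 (81489), the class B DNAJ protein that delivers clients to cytosolic HSP70, was at 14.1, 15.6 and 15.7 FPKM in control, 13.6, 15.8 and 13.0 after conidia, and 25.1, 25.2 and 37.7 after hyphae. The hyphae libraries lay above the other 6, which overlapped between groups. The log2 change in hyphae against control was 0.89 (SE 0.16, adjusted p = 0.00114), 1.30 after rescaling, and 0.70 without hyphae replicate 3 (adjusted p = 0.00134).

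The HSP70 genes did not follow this pattern. Hspa8 (15481), the constitutive HSP70, was at 493, 509 and 582 FPKM in control, 587, 623 and 611 after conidia, and 419, 506 and 588 after hyphae. The hyphae libraries lay below, within and just above the control range. The log2 change in hyphae against control was -0.08 with a 95% interval from -0.38 to 0.22 (adjusted p = 0.63). Its sign depended on the scaling and on hyphae replicate 1: it was 0.35 after rescaling (adjusted p = 0.0783) and 0.05 without that library.

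Hspa1a (193740) and Hspa1b (15511) encode the stress-inducible HSP70 and are textbook HSF1 targets. Hspa1a was at 7.14, 4.61 and 6.08 FPKM in control, 4.76, 5.96 and 5.63 after conidia, and 2.74, 2.94 and 3.14 after hyphae. Hspa1b was at 7.05, 3.87 and 4.63, then 4.76, 5.86 and 4.20, then 2.26, 2.62 and 2.48 FPKM in the same order. For both genes every hyphae library was below every other library, and control and conidia overlapped. The transcripts are 98.9% identical over 2214 aligned bases, and 47.1% of the 100-base windows of Hspa1a occur unchanged in Hspa1b, so the split of fragments between them is uncertain; Hspa1a also overlaps Gm20481 on the opposite strand. Added together, they stood at 11.1 ± 2.88 FPKM in control, 10.4 ± 1.25 after conidia and 5.39 ± 0.342 after hyphae. The sum fell by 0.90 on the log2 scale in hyphae against control (SE 0.17, adjusted p = 0.00145), and by 0.52 after rescaling (adjusted p = 0.0193). Hspa8 was 49.7 ± 13.3 times the sum in control, 58.9 ± 5.30 times after conidia and 93.1 ± 10.6 times after hyphae. The hyphae ratios did not overlap those of the other groups. With 3 libraries against 3 an exact two-sided test cannot go below p = 0.1, so this and the ratios below are given as descriptions.

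Hsph1 (15505), an HSP110 protein that exchanges nucleotide on HSP70 and helps to dissolve aggregates, was at 21.2, 17.9 and 16.8 FPKM in control, 10.1, 17.5 and 13.1 after conidia, and 12.1, 8.43 and 8.07 after hyphae. Hyphae libraries were below all control libraries and overlapped the conidia range. Its log2 level fell by 0.91 in hyphae against control (SE 0.20, adjusted p = 0.00387), and by 0.51 after rescaling (adjusted p = 0.0231).

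Hsp90aa1 (15519), the stress-responsive cytosolic HSP90, was at 188, 167 and 156 FPKM in control, 134, 150 and 128 after conidia, and 177, 169 and 181 after hyphae. The hyphae libraries lay inside the control range, and the conidia libraries below both. The log2 change in hyphae against control was 0.05, with a 95% interval from -0.19 to 0.28 (adjusted p = 0.71), and -0.01 without control replicate 3. After rescaling it was 0.47 and was called (adjusted p = 0.00261). Its ratio to Hsp90ab1, the constitutive cytosolic HSP90, was 0.395 ± 0.0479 in control, 0.396 ± 0.0343 after conidia and 0.546 ± 0.0688 after hyphae, a ratio within a library that no scaling changes. The hyphae ratios lay above those of the other groups.

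Hspd1 (15510) and Hspe1 (15528) encode the HSP60 and HSP10 parts of the mitochondrial chaperonin and lie head to head on chromosome 1. Hspd1 was at 48.1, 42.0 and 45.3 FPKM in control, 39.6, 43.3 and 40.8 after conidia, and 30.3, 23.4 and 28.3 after hyphae. Hspe1 was at 60.7, 47.4 and 49.7, then 42.1, 51.8 and 46.2, then 40.9, 22.2 and 33.5 FPKM. All hyphae libraries were below the other groups for both genes. Hspd1 fell by 0.71 on the log2 scale in hyphae against control (SE 0.11, adjusted p = 0.000532) and by 0.29 after rescaling (adjusted p = 0.0218). Hspe1 fell by 0.73 (SE 0.20, adjusted p = 0.0118), but after rescaling its change was -0.31, was not called (adjusted p = 0.158) and the groups overlapped. The ratio of Hspe1 to Hspd1 was 1.16 ± 0.0865 in control, 1.13 ± 0.0669 after conidia and 1.16 ± 0.203 after hyphae. Their exons overlap on opposite strands and the counting is not stated to use strand, so some fragments may be assigned to either gene; GENCODE M21 also names 5 pseudogenes after Hspd1 and 6 after Hspe1, none of which the deposited tables list.

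Summed over the 10 genes, the level was 917 to 1028 FPKM in control, 1069 to 1136 after conidia and 1318 to 1825 after hyphae. This was 0.175 to 0.198% of all FPKM in a control library, 0.211 to 0.217% after conidia and 0.265 to 0.354% after hyphae, with no overlap between groups. The composition of the sum also shifted. Hspb1 made up 12.8, 8.42 and 11.3% of it in control, 18.1, 10.98 and 20.5% after conidia, and 39.8, 40.0 and 46.1% after hyphae, while Hspa8 made up 49.1 to 56.6% in control and 31.8 to 35.2% after hyphae. The ratio of Hspb1 to Hspa8 was 0.203 ± 0.0540 in control, 0.300 ± 0.0999 after conidia and 1.27 ± 0.149 after hyphae.

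**Figure D3:**
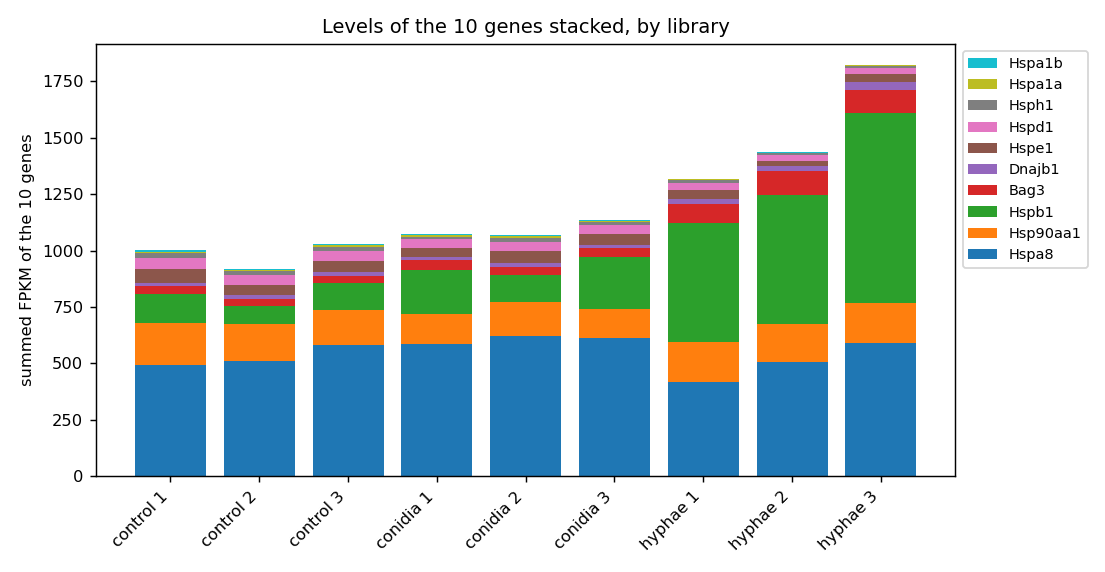
Stacked FPKM of the 10 members in each of the 9 libraries; each colour is a gene and the height of a bar is the sum. The hyphae bars, 1318 to 1825 FPKM, are taller than the others, and Hspb1 makes up 39.8 to 46.1% of each.

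In conidia against control none of the 10 members was called, where 0.690% of all genes tested were (0.596% higher and 0.0945% lower; 95 genes, with 2909 at an unadjusted p under 0.05). After rescaling none was called either, with 0.342% of genes called, 0.298% higher and 0.0436% lower. Dnajb1, Hspa1a, Hspa1b, Hspd1 and Hspe1 differed by -0.16 to -0.03, with overlapping groups. Hspb1 showed the largest difference, 0.73 on the log2 scale with a 95% interval from 0.07 to 1.40 (adjusted p = 0.205). Conidia replicate 2 was within the control range, and without it the change was 1.02 and was called (adjusted p = 0.0448). That fit called 1535 of the 13761 genes, against 95 with no library left out. Conidia replicate 2 had the lowest summed FPKM of 11 neutrophil markers among the conidia libraries (868, against 2229 and 3106), and the relation was not tested. Bag3 (0.22, adjusted p = 0.254) and Hspa8 (0.20, adjusted p = 0.389) lay above control without overlap, as 12.0% of all genes did, and Hsp90aa1 (-0.31, adjusted p = 0.147) lay below, as 17.8% did. Hsph1 differed by -0.46 with a 95% interval from -0.92 to 0.01 (adjusted p = 0.24). The median change over the members was -0.10, against -0.07 over all genes.

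Set directly against conidia, hyphae gave 4 members called higher and 4 lower, where 55.2% of all genes were called, 12.7% higher and 42.5% lower; after rescaling 4 were higher and 3 lower, with 50.8% of genes called and 25.4% in each direction. The groups did not overlap for the same 4 and 4 members, as for 14.8% (higher) and 45.1% (lower) of all genes. Hspb1 was higher by 1.85 on the log2 scale (SE 0.29, adjusted p = 0.000982), Bag3 by 1.23 (SE 0.10, adjusted p = 5.26e-05) and Dnajb1 by 0.98 (SE 0.16, adjusted p = 0.00093). Hsp90aa1 was higher by 0.36 (adjusted p = 0.0164), with no overlap, and by 0.69 after rescaling; without conidia replicate 3 the change was 0.31 and was not called (adjusted p = 0.0635). Hspa1a and Hspa1b together fell by 0.83 (adjusted p = 0.0029) and Hspd1 by 0.58 (adjusted p = 0.00197), and both remained called after rescaling. Hspe1 differed by -0.56 at the edge of the threshold (adjusted p = 0.0417). It was not called after rescaling (-0.24) or in 7 of the 9 fits that left out a library, those without any conidia library, control replicates 2 or 3, or hyphae replicates 2 or 3; over all 9 the values ran from -0.75 to -0.32. Hsph1 differed by -0.46 (adjusted p = 0.0844), was called without conidia replicate 1 (-0.64) or hyphae replicate 1 (-0.62), and was -0.15 after rescaling. Hspa8 differed by -0.28 (adjusted p = 0.10), was called without hyphae replicate 3 (-0.40, adjusted p = 0.0321) and was 0.05 after rescaling. Both contrasts with hyphae share the hyphae libraries and both contrasts with control share the control libraries, so they are not independent.

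**Figure D4:**
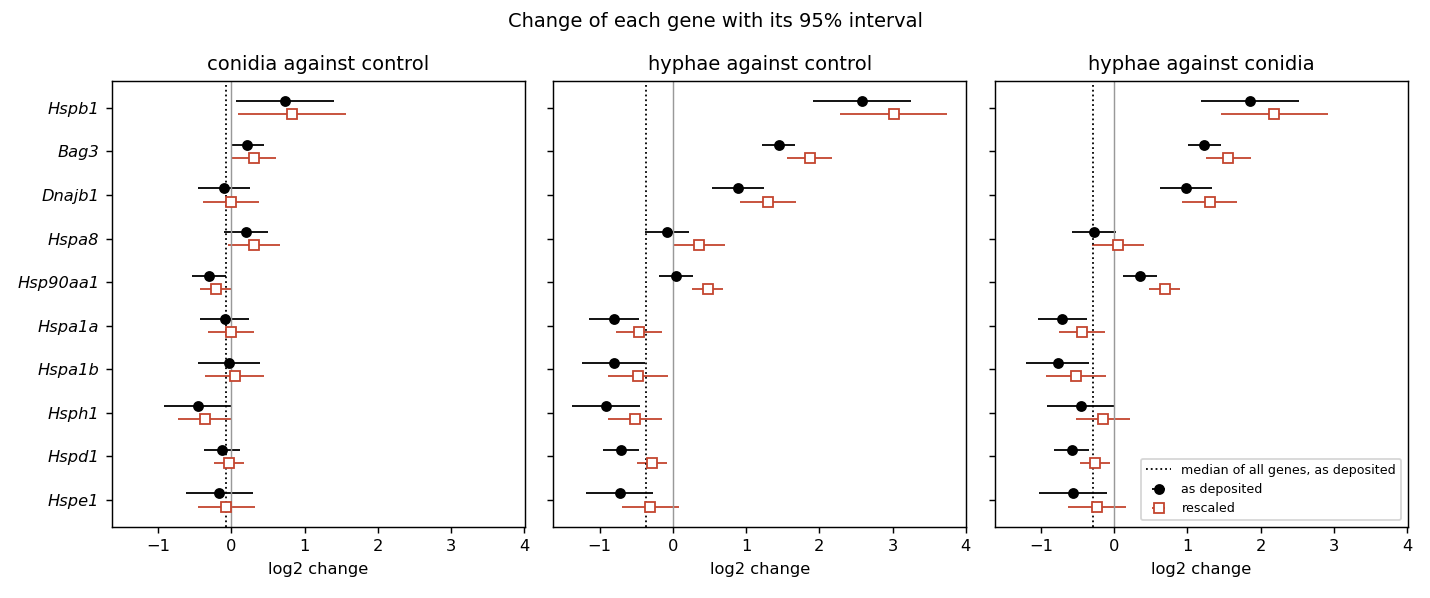
Log2 change of each member with its 95% interval in the 3 comparisons, as deposited (filled circles) and after rescaling (open squares); the dotted line is the median of all 13761 genes as deposited, -0.07, -0.37 and -0.29. Hspb1, Bag3 and Dnajb1 lie to the right of 0 in both comparisons with hyphae on both scales, whereas Hsp90aa1 and Hspa8 move across or away from 0 with the scale.

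The other chaperone genes were taken from lists by class, 79 genes of which 78 were tested (Hspb3 was not). In hyphae against control 16 rose, 39 fell and 23 were not called, with a median log2 change of -0.33. Of all genes tested, 14.9% were called higher and 50.0% lower, with a median of -0.37. After rescaling 35 were higher, 16 lower and 27 not called, with a median of 0.08. The shares of all genes were then 30.0% higher and 29.3% lower, with a median of 0.00. Counts by class below are to be read beside these shares. The heat shock factors and their regulator gave 4 of 4 lower, and 0 of 4 called after rescaling. Hsf1, the factor that drives the heat shock response, was at 29.8 ± 1.20 FPKM in control and 23.9 ± 2.27 after hyphae, a log2 change of -0.31 (adjusted p = 0.0253) that was 0.11 after rescaling and was not called without control replicate 1 (-0.29), control replicate 2 (-0.30), hyphae replicate 2 (-0.31) or hyphae replicate 3 (-0.25). Hsf2, Hsf4 and Hsbp1 differed by -0.40, -0.58 and -0.61.

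Of 11 other HSP70 and HSP110 genes, 2 rose, 6 fell and 3 were not called in hyphae against control (5, 3 and 3 after rescaling). Hspa5, the HSP70 of the endoplasmic reticulum, rose from 158 ± 14.6 to 271 ± 26.8 FPKM (log2 change 0.77, adjusted p = 0.000694, and 1.20 after rescaling), and Hspa13 rose by 0.32. After conidia Hspa5 was at 218 ± 23.3 FPKM, above control without overlap (0.46, adjusted p = 0.105), as 12.0% of all genes were. In hyphae against conidia Hspa5 differed by 0.31 and was not called (adjusted p = 0.0587). After rescaling that difference was 0.64 and was called. Hspa2, known for its role in spermatogenesis, fell by 1.91, Hspa12b by 1.30 and Hspa4l by 1.01, and each was also called lower after rescaling (-1.56, -0.90 and -0.62). All 3 other HSP90 genes were called lower, Hsp90ab1 by 0.42, the endoplasmic reticulum form Hsp90b1 by 0.44 and the mitochondrial form Trap1 by 0.85. After rescaling Hsp90ab1 was at 0.01 and Hsp90b1 at -0.01, and Trap1 at -0.43 was the member of that class still called. Hsp90ab1 was not called without control replicates 1 or 3 or hyphae replicates 2 or 3 (-0.38 to -0.36), nor Hsp90b1 without any control library or hyphae replicates 2 or 3 (-0.46 to -0.30).

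HSP90 cochaperones were called lower in 7 of 11 cases, higher in 2 and not in 2 (6, 3 and 2 after rescaling). Chordc1, a heat-inducible HSP90 cochaperone, fell by 1.38, the ATPase activator Ahsa2 by 1.11 and the immunophilin Fkbp4 by 1.06; these were -0.98, -0.71 and -0.64 after rescaling. Promoter windows were also read for Chordc1, Dnajb4 and Hspb8, chosen after their values were seen: that of Chordc1 held 3 overlapping matches of 3 units, and 1 of the 2 windows of Dnajb4 and that of Hspb8 held a match of 2 units. Fkbp5, an immunophilin known as a glucocorticoid receptor target, went the other way, from 6.55, 3.38 and 4.77 FPKM in control to 42.8, 13.6 and 44.5 after conidia and 56.0, 47.5 and 34.1 after hyphae. All of these treated libraries lay above control. Its log2 change was 3.0 in hyphae against control (adjusted p = 0.000393) and 2.42 in conidia against control (adjusted p = 0.047). The call in conidia was lost in 11 of 16 alternatives, among them each fit that left out a library other than conidia replicate 2 or hyphae replicate 1, and the log2 changes over the left-out libraries ran from 2.13 to 2.95. Unc45a, a cochaperone of myosin folding, rose by 0.97 after hyphae.

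Of 11 HSP70 cochaperones, 2 rose, 5 fell and 4 were not called (6, 2 and 3 after rescaling). Bag5 rose by 0.67 and the mitochondrial exchange factor Grpel1 by 0.64, while Stub1, a ubiquitin ligase that acts on chaperone clients, fell by 0.80 and St13 by 0.69. Bag5 also lay above control after conidia without overlap (0.36, adjusted p = 0.212). In hyphae against conidia Bag5 differed by 0.32 and was not called (adjusted p = 0.0959). After rescaling that difference was 0.64 and was called. Of 12 other class A and B DNAJ genes, 3 rose, 5 fell and 4 were not called (7, 2 and 3 after rescaling). Dnajb4, a close relative of Dnajb1, rose from 28.6 ± 1.36 to 86.5 ± 17.5 FPKM (log2 change 1.55, adjusted p = 4.32e-05), a larger change than that of Dnajb1. Dnaja2 and Dnajb6 rose by 0.51 and 0.52. The mitochondrial DNAJ Dnaja3 fell by 1.32, Dnajb2 by 1.29 and Dnaja4 by 0.62; the last was not called after rescaling (-0.21) or without control replicate 1 (-0.50), hyphae replicate 2 (-0.56) or hyphae replicate 3 (-0.55).

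Among 7 other small heat shock proteins tested, 2 rose, 1 fell and 4 were not called (3, 1 and 3 after rescaling). Hspb8, the partner that Bag3 binds, was at 51.3, 29.2 and 35.6 FPKM in control, 43.8, 38.8 and 48.9 after conidia, and 85.4, 88.0 and 81.5 after hyphae. The hyphae libraries lay above all others, with a log2 change of 1.15 (adjusted p = 0.000658). Cryab, at 267 ± 18.5 FPKM in control and 268 ± 34.5 after hyphae, differed by -0.0033 (adjusted p = 0.981) and was called higher after rescaling (0.43). The low Hspb9 went from 0.28 to 1.59 FPKM on average (log2 change 1.02) and Cryaa from 2.01 to 0.35 (-1.13). Hspb9 reached 1 FPKM in the hyphae libraries only (1.13, 2.1 and 1.54). It therefore passed the filter only through the group where it was high. Its place among the 2 genes that rose here, and among the 16 of all classes, is to be read with that limit.

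The TRiC/CCT chaperonin, which folds actin and tubulin, had 4 of 8 subunits called lower (Cct4 by 0.68, Cct7 by 0.60, Cct5 by 0.45 and Cct3 by 0.32) and none higher; after rescaling 4 others were called higher and none lower, and Cct3 was at 0.10. Cct3 was not called without control replicate 1 (-0.29), control replicate 3 (-0.32), hyphae replicate 2 (-0.30) or hyphae replicate 3 (-0.27). Of 5 mitochondrial proteases and disaggregases, Htra2, Clpp and Clpb fell, by 0.70, 0.69 and 0.56, and after rescaling Clpp was called lower and Lonp1 (0.49) and Clpx (0.71) higher. Other genes known as heat-inducible rose in 5 of 6 cases on both scales. Among them, Hmox1, the haem oxygenase, rose by 1.70, Sqstm1, a selective autophagy receptor, by 1.35, and Dedd2 by 1.16. Hmox1 (1.66, adjusted p = 0.0759) and Dedd2 (0.62, adjusted p = 0.0871) also lay above control after conidia without overlap, as 12.0% of all genes did. In hyphae against conidia Hmox1 differed by 0.04 (adjusted p = 0.94), with overlapping groups, and Dedd2 by 0.54 (adjusted p = 0.0141). The collagen chaperone Serpinh1 fell by 0.55 and was not called after rescaling. In conidia against control 1 of the 78 genes was called, Fkbp5, where 0.690% of all genes tested were.

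**Figure D5:**
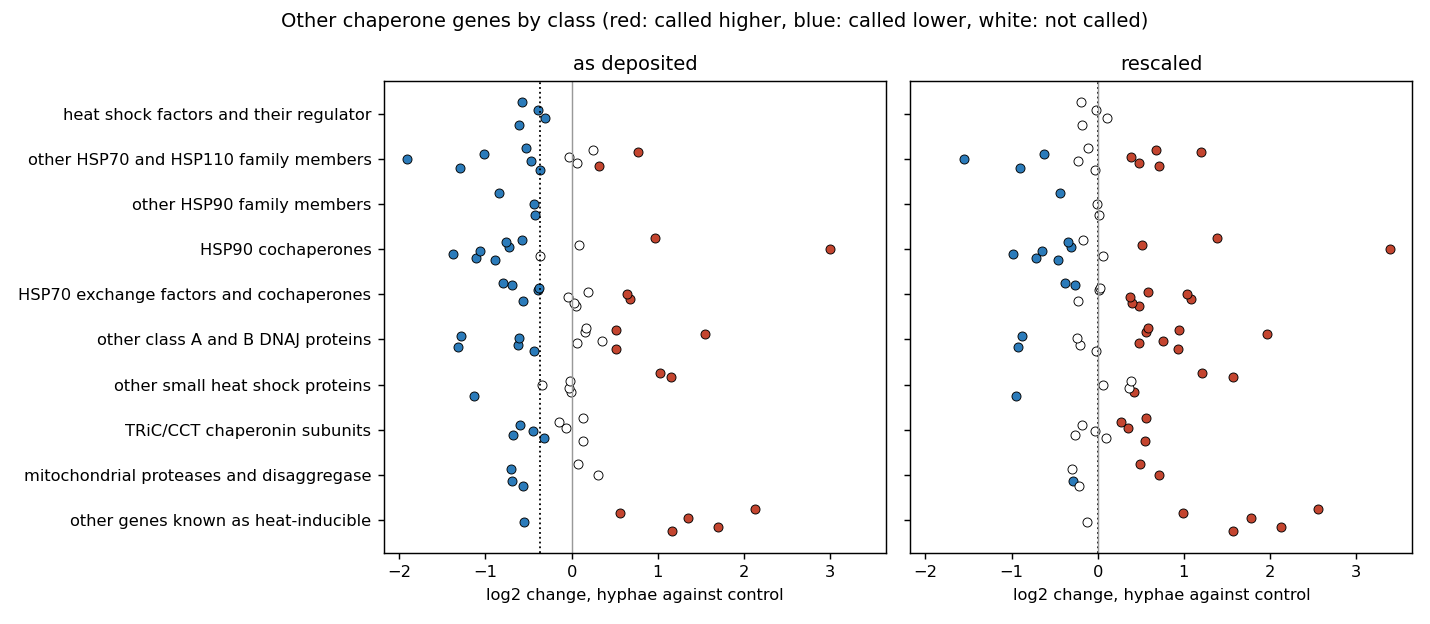
Log2 change in hyphae against control of the other chaperone genes by class, 1 point a gene, as deposited (left) and after rescaling (right); red points are called higher, blue lower and white not called, and the dotted line is the median of all genes. As deposited 39 genes are called lower and 16 higher, beside 50.0% and 14.9% of all genes tested. After rescaling 16 are called lower and 35 higher, beside 29.3% and 30.0%.

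The genes whose levels over the 9 libraries ran closest to those of selected members were found by the root mean square distance between centred log2(FPKM + 1) profiles. Nearest to the mean profile of Hspa1a and Hspa1b were Inpp1, Kctd17, Nrg2, Nmnat1 and Hint3, at distances of 0.0955 to 0.122 against a profile amplitude of 0.402. Nearest to Hspd1 and Hspe1 were Bckdk, Nubpl, Trpt1, Tmed3 and Apool, at 0.0492 to 0.0798 against 0.352. Nearest to Hspa8 were Dysf, Mob3c, Spata5, Erich1 and Shkbp1, at 0.0699 to 0.0981 against 0.178.

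In whole lung, fewer cells of a type and less RNA per cell cannot be told apart for any of these changes. Lung markers were present: Scgb1a1 of club cells was the top gene of every library, and no list had a marker at 0 in all libraries of a group. Marker levels also differed between groups. Summed over 11 neutrophil markers, the level was 135 to 157 FPKM in control, 868 to 3106 after conidia and 674 to 5978 after hyphae, with 9 of 11 markers called higher in hyphae on both scales, and in conidia 3 as deposited and 0 after rescaling. Hyphae replicate 1, at 674 FPKM, was below every conidia library in this sum. Its Hspb1, Bag3 and Dnajb1 were above every conidia library, and the relation was not tested. The 5 ciliated cell markers were all called lower in hyphae (543 to 715 FPKM in control, 269 to 375 after hyphae; 4 of 5 after rescaling), as were 4 of 5 club cell markers (2 of 5 after rescaling). The 8 immediate early genes, such as Fos and Jun, which respond to many stimuli, were all called higher in hyphae on both scales (325 to 429 FPKM in control, 373 to 784 after conidia, 1335 to 4048 after hyphae). Hyphae replicate 3 was highest in both the neutrophil and the immediate early sums, as it was in Hspb1 and Dnajb1. It was not highest in Bag3, which was at 101 FPKM there and at 103 in hyphae replicate 2. The part of these differences in the members' changes was not tested.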

How the data were processed

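Poly(A) RNA was sequenced on a BGISEQ instrument, per the labels' protocols. The deposited values are FPKM per gene from the authors, 1 table for each of 9 libraries; HISAT, Bowtie2 and the mm9 build are named, per the submitters' processing notes, without versions or settings. Fragment counts were not used here. The spacing of low FPKM values gave an approximate depth of 19800000 to 20900000 fragments in each library, assuming fragments of 150 bases, or about 120 to 400 fragments for Hspa1a or Hspa1b. Groups followed the treatment label. All 9 libraries entered 1 fit with a term for each group (limma 3.58.1 in R 4.3.3, trend and robust moderation) on log2(FPKM + 1). It covered the 13761 genes reaching 1 FPKM in 3 or more libraries. The fit was also run on simulated data without a shift of the all-gene median, so that run does not bear on the scaling. A pseudocount of 1 understates the change of low genes. Rescaling used median-of-ratios factors, with the filter kept on deposited values; that placement, and keeping the same genes when a library was left out, were set after a first run. Alternatives were a pseudocount of 0.1, no filter, a minimum of 5 FPKM, rescaling, no trend or robust step, a replicate block, a fit of only the 2 groups compared, each library left out, and Hspa1a and Hspa1b added as 1 gene.

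The members, gene lists and naming rule were chosen with earlier results of these data known. Beyond the members, Hsf1, Hspa5 and Hsp90ab1, the rule named up to 4 genes of a list called in hyphae against control without overlap, by size of change, up to 1 called in conidia, and the 5 nearest profiles of 3 anchors. Hspa13, Unc45a, Dnaja2, Dnajb6, Cryab, Serpinh1, Lonp1 and Clpx were named after their values were seen. The rule also named a gene of the heat-inducible list that is not reported here. Marker lists covered neutrophils, monocytes and macrophages, lymphocytes, alveolar type 1 and type 2 cells, club and ciliated cells, endothelium, smooth and cardiac muscle, and immediate early genes. In hyphae against control the lists not described with the members had 0 of 6 markers called higher and 2 lower (monocytes and macrophages; 1 and 1 after rescaling), 0 and 5 of 8 (lymphocytes; rescaled 0 and 3), 0 and 2 of 6 (alveolar type 2; rescaled 3 and 1), 1 and 1 of 5 (alveolar type 1; rescaled 3 and 1), 3 and 1 of 6 (endothelium; rescaled 3 and 0), 0 and 3 of 5 (smooth muscle; rescaled 0 and 1) and 0 and 0 of 6 (cardiac; rescaled 0 and 0). Promoter letters, from RefSeq on GRCm38.p6, the transcript comparison, from GENCODE M21, and the depth estimate were added after the files were read.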

Additional observations from a re-analysis of the deposited data

How the results depend on the processing

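Of 71 results for single genes, 46 kept their direction and their side of the threshold under every alternative run, among them Hspb1, Bag3, Dnajb1, Hspa1a, Hspa1b and Hspd1 in both comparisons with hyphae. Leaving out libraries in turn, conidia against control gave 0 to 1 members called (1 without conidia replicate 2), 0 to 1535 genes in all against 95, and 0 to 5 other chaperone genes against 1. The total of 95 became 43 with no filter, 47 after rescaling and 57 with the replicate block, and the 1 other chaperone gene became 0 under each of these. Conidia differences near 0 changed sign: Hspa1a ran from -0.24 to 0.029, Hspa1b from -0.19 to 0.17 (0.046 after rescaling, 0.057 without conidia replicate 3) and their sum from -0.23 to 0.11 (0.020 after rescaling) over the left-out libraries. In hyphae against control, rescaling turned Hspa8 (0.35), Cct3 (0.10), Hsf1 (0.11) and Hsp90ab1 (0.010), and leaving out a library gave Hspa8 from -0.19 to 0.051 and Hsp90aa1 from -0.014 to 0.12; in hyphae against conidia, rescaling turned Hspa8 (0.052). Rescaling differs from the deposited scale by construction, through the shift of the all-gene median; for the other changes the cause was not tested. Deviations from the group mean correlated at -0.312 to 0.425 between libraries with the same replicate number. Between libraries with different numbers the range was -0.536 to 0.297. With 3 libraries in a group these values cannot decide whether the numbers pair the samples. With the replicate block 0 members were called in conidia against control and 8 in each comparison with hyphae, as without it. Fkbp5 in conidia against control and Hsp90ab1 in hyphae against control were the results for single genes whose call was lost with the block. Hspa1a and Hspa1b had the lowest FPKM of the members in every library, at about 120 to 400 fragments each. Whether depth limits their changes was not tested.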
